A study of Mus musculus with 44 samples.

Results

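BXD34 is one of the BXD recombinant inbred mouse strains, each homozygous for its own mosaic of the C57BL/6 and DBA/2 genomes. Messenger RNA of blood-forming stem and progenitor cells of BXD34 was compared, across all genes, with that of 11 other BXD strains. The members were the 2 arrays titled BXD 34, of 44 arrays in the series. They were set against the 22 arrays of the 11 other strains whose titles carry the same array code, M7SS020806, namely BXD1, BXD2, BXD5, BXD9, BXD14, BXD16, BXD18, BXD19, BXD21, BXD28 and BXD39, with 2 arrays each. The study looked for genes and loci that act on stem cell function. All groups were females of 3 to 6 months with no treatment named, and each sample pooled the femur and tibia marrow of 3 mice. After lysis of red cells, the 5% of cells with the least stain for the lineage antibodies (CD3e, B220, Mac-1, TER119 and Gr-1) were kept. Of these, cells positive for Sca-1 and for c-kit were collected by flow sorting straight into lysis buffer. Yields over the whole series ran from 16000 to 118000 cells. BXD34 is a single inbred genotype seen through 2 arrays, so its genotype and anything particular to its pools cannot be told apart.

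Cells that lack lineage markers and carry Sca-1 and c-kit include the long-lived stem cells, most of which rest outside the cell cycle, and the multipotent progenitors that descend from them and divide. Stem cells carry surface molecules such as the receptor encoded by Procr, whereas progenitors that lean to the lymphoid fate switch on Flt3 and Dntt, and those that lean to the myeloid fate switch on granule genes such as Mpo. A sorted sample therefore holds several stages, and in such bulk RNA fewer cells of one type and less RNA per cell cannot be told apart.

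Each Affymetrix MG_U74Av2 probe set gave 1 intensity per array. Levels below are log2 intensities after quantile normalization with a floor of 4, and they are compared only within a probe set. Levels of BXD34 are given as replicate 1 and replicate 2, and those of the other 22 arrays as their range with the median in brackets. Differences are the BXD34 mean minus the mean of the 11 other strain means, ± SE, from a limma fit of 12 strain means over the 24 arrays. A gene was called when its Benjamini-Hochberg adjusted p over all 7453 tested probe sets was below 0.05. The brightest tested probe set stood for a gene, which gave 5620 tested genes.

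The BXD34 arrays had deposited medians of 110 and 104.6 and 12.1% and 13.0% of probe sets under the floor, within the 101.85 to 113.7 and 9.24% to 15.9% of the other arrays. After each probe set was centred, the BXD34 arrays correlated with each other at r = 0.0637, against a median of 0.0922 over the 11 other strains, which ran from -0.147 to 0.328. Replicate 1 resembled BXD18 replicate 1 most (r = 0.333) and replicate 2 resembled BXD14 replicate 2 most (r = 0.207). The arrays of BXD34 were thus less alike than those of the median strain, as far as correlations across probe sets, which are no replicates, can tell.

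Against the other strains, 84 probe sets were called in BXD34 (1.13%), 36 higher (0.483%) and 48 lower (0.644%), and 690 had an unadjusted p below 0.05. By gene, 64 were called (1.14%), 30 higher (0.534%) and 34 lower (0.605%). All counts of called list members and markers given below are to be read beside these shares. The median difference of all tested genes was 0.002, and the called probe sets differed by 0.74 to 2.53 in size. In the same fit, BXD2 had 117 calls and the other 10 strains between 8 and 43, and all these comparisons share arrays. Both BXD34 arrays lay above all 22 others in 56 probe sets (0.751%), of which 17 were called, and below all others in 45 (0.604%), of which 22 were called. By gene these counts were 38 (0.676%) and 30 (0.534%). BXD34 had the highest strain mean in 26 of the 36 probe sets called higher and the lowest in 43 of the 48 called lower.

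**Figure D1:**
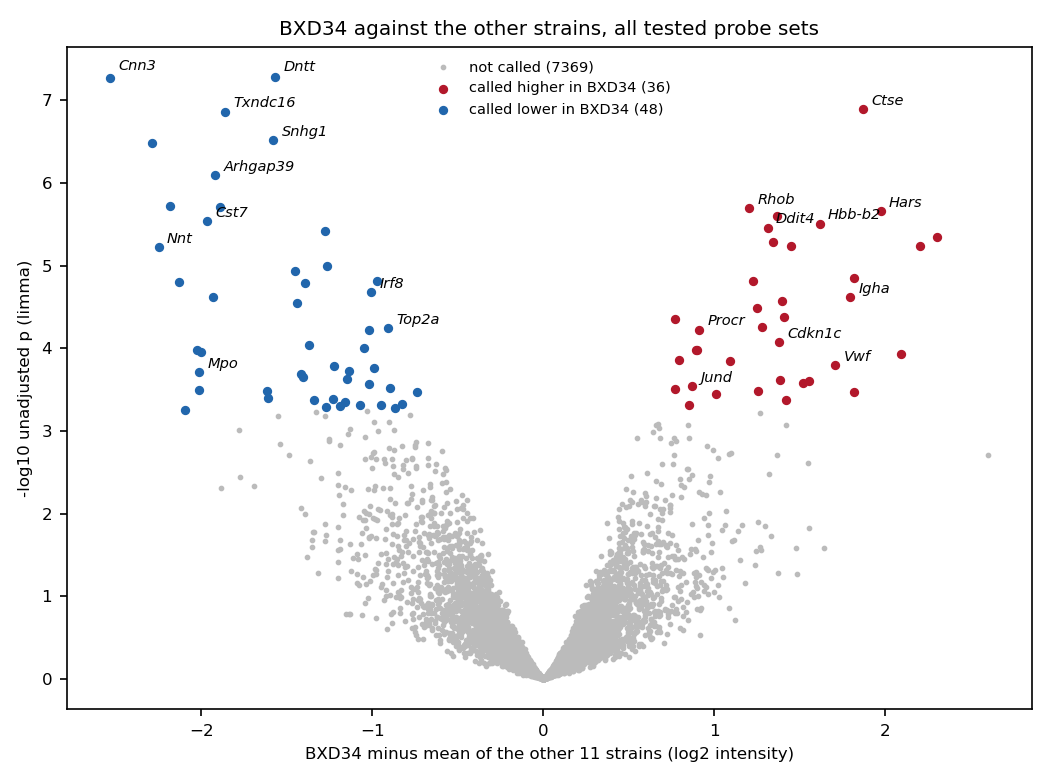
Each point is 1 of the tested probe sets, with the BXD34 mean minus the mean of the 11 other strains (log2 intensity) on the x axis and the -log10 of the unadjusted limma p on the y axis. Red points were called higher (36), blue points were called lower (48), grey points were not called, and selected genes are labelled.

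The error of these calls is the spread between the 2 arrays of a strain. When strain was a random block instead, the spread among the 11 other strains entered the error in part, and 10 probe sets were called. That fit used 1 consensus correlation of 0.0378 for all probe sets, so the 2 arrays of a strain counted almost as independent. For probe sets that differ widely among strains its error is therefore too small. Lower were Txndc16, Arhgap39, Nnt, Ncaph, Pdgfb, E2f1, Top2a and 2 probe sets of Dntt, and higher was Crlf3. Every other call reported below ended in that fit. Leaving out BXD34 replicate 1 left 33 probe sets called and leaving out replicate 2 left 67. Of the 42 called genes picked by the naming rule, 8 were called without either array, namely Hars, Ctse, Cnn3, Cst7, Arhgap39, Txndc16, Snhg1 and Dntt, 20 were called in neither of these fits, and the other 14 rested on 1 of the arrays.

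The sort could be checked on the genes behind its antibodies. Kit, the c-kit receptor itself, read 9.85 and 9.74 in BXD34 and 9.18 to 10.21 (median 9.69) in the other arrays. The BXD34 arrays lay inside that range and Kit was not called (0.10 ± 0.21, adjusted p = 0.942). Ly6a, which encodes Sca-1, had no probe set under that symbol. Of the lineage genes, Cd3d was under the floor in both BXD34 arrays, and the dim Cd3e probe set read 5.33 and 5.30 against 4.88 to 5.79 (median 5.22). Itgam, the Mac-1 subunit, read 4.02 and 4.90 against 4.0 to 5.11 (median 4.19). Xist, present in female cells, read 10.85 and 11.61 against 10.05 to 11.93 (median 11.20), with no call (adjusted p = 0.994). The levels of all these genes in BXD34 were within the range of the other arrays.

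Marker lists of other cell types were summed on the linear scale for each array. For the 4 erythroid markers on the array the sums were 3684 and 1642 in BXD34 against 689 to 2770 (median 918) in the other arrays, and 1 of the 3 that were tested, Hba-a1, was called. For the 4 plasma cell markers the sums were 2012 and 1916 against 567 to 1883 (median 1099), with Igha called of 3 tested. For the 7 neutrophil markers they were 10255 and 7381 against 5011 to 10562 (median 6052), with 0 of 6 called. Both plasma cell sums and 1 of the erythroid sums of BXD34 lay above all other arrays, and the neutrophil sums lay in the upper part of the range. The sums for B cells, T and NK cells, monocytes, megakaryocytes and endothelial cells lay within the range of the other arrays, and the endothelial marker Sparc was under the floor in both BXD34 arrays. The 5 sorted-cell markers summed to 3869 and 3127 against 3045 to 5081 (median 4272).

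Several genes that mark or act in stem cells were higher in BXD34. Procr, the endothelial protein C receptor, is widely used to enrich long-lived stem cells. It read 9.64 and 9.08 against 7.93 to 9.01 (median 8.43), and both BXD34 arrays lay above all others (difference 0.91 ± 0.17, adjusted p = 0.0112). Vwf encodes von Willebrand factor, which platelets and endothelium carry and which also marks a platelet-biased set of stem cells. Its level was 9.01 and 8.93 against 5.19 to 9.12 (median 7.27), so 1 array of BXD9 lay above both (1.71 ± 0.35, adjusted p = 0.0232). Aldh1a1, a retinaldehyde dehydrogenase, read 8.83 and 8.95 against 5.84 to 8.49 (median 7.37), above all others (1.52 ± 0.33, adjusted p = 0.0322). Its dimmer probe set was not called (0.43 ± 0.43, adjusted p = 0.849). Cdkn1c, the imprinted inhibitor p57 that holds stem cells out of the cell cycle, read 8.79 and 9.26 against 6.81 to 8.58 (median 7.72). Both arrays again lay above all others (1.38 ± 0.27, adjusted p = 0.0154). The calls of Vwf, Aldh1a1 and Cdkn1c were lost on leaving out either BXD34 array, and that of Procr on leaving out replicate 1. Without replicate 1 and without replicate 2, the differences were 0.63 and 1.20 for Procr and 1.67 and 1.75 for Vwf. Those of Aldh1a1 were 1.58 and 1.46, and those of Cdkn1c 1.61 and 1.15.

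Of the 21 tested stem and progenitor surface molecules, Procr was the only one called higher and 0 were called lower, with a median difference of 0.09. The members with the next largest differences were looked up after their values were seen. The BXD34 mean of Flt3, the receptor of multipotent and lymphoid-primed progenitors, was the lowest of the 12 strains, at 10.38 and 9.89 against 10.29 to 11.50 (median 10.92), but it was not called (-0.78 ± 0.19, adjusted p = 0.0538). Cd48, which is carried by progenitors and absent from most stem cells, read 7.88 and 6.89 against 7.29 to 8.93 (median 8.49) (-0.99 ± 0.24, adjusted p = 0.0629). Cd93 and the integrin Itga4 also had their lowest strain mean in BXD34, with differences of -0.82 ± 0.31 and -0.63 ± 0.18 and adjusted p of 0.365 and 0.143. In all 4 genes the arrays overlapped with those of other strains. On the other side, Eng, a receptor of the TGF-beta family on endothelium and stem cells, read 11.75 and 11.64 against 9.59 to 12.16 (median 10.84) and had the 2nd highest strain mean (0.83 ± 0.42, adjusted p = 0.588). Tie1, another receptor of endothelium and stem cells, differed by 0.82 ± 0.25 (adjusted p = 0.188).

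Among the 27 tested stem and progenitor transcription factors, 1 was called higher and 1 lower, and the median difference was 0.17. Fli1, an ETS factor of stem cells and megakaryocytes, was higher, at 8.16 and 7.83 against 4.50 to 7.56 (median 6.44). Both BXD34 arrays lay above the rest (1.38 ± 0.30, adjusted p = 0.0306), but the call was lost on leaving out either of them. Runx1, the factor that starts definitive blood formation, was lower by its single tested probe set. It read 5.63 and 4.0 in BXD34, the second at the floor, against 4.0 to 8.07 (median 7.0), and 1 BXD19 array was also at the floor (-2.01 ± 0.44, adjusted p = 0.0362). That call was lost on leaving out any of 9 single arrays. Other members were looked up after their values were seen, and none of them passed. Meis1, Lmo2 and Gata3, factors of early progenitors, had their highest strain mean in BXD34. Their differences were 0.48 ± 0.21, 0.48 ± 0.18 and 0.77 ± 0.20 (adjusted p of 0.468, 0.328 and 0.0893). So did Zfpm1 and Tcf3 (0.74 ± 0.25 and 0.23 ± 0.18, adjusted p of 0.250 and 0.793). For Hoxa9 and Mecom, BXD34 had the 2nd and 3rd lowest mean (-0.20 ± 0.23 and -0.29 ± 0.20, adjusted p of 0.869 and 0.741). Of the 27 members, 18 lay above the mean of the other strains and 9 below.

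Outside the lists, further called genes with known roles in blood stem cells or growth factor signals were named after their values were seen. Mllt3, a reader of histone acylation that sustains human stem cells in culture, read 10.04 and 10.20 against 8.37 to 10.04 (median 8.79), and 1 other array lay between the BXD34 arrays (1.25 ± 0.22, adjusted p = 0.00712). Socs2, which damps cytokine receptor signals, was the third highest strain mean, at 8.71 and 9.08 against 7.39 to 9.53 (median 7.88) (0.85 ± 0.20, adjusted p = 0.0457). Crlf3, a cytokine receptor-like protein, read 10.07 and 10.46 against 9.05 to 9.81 (median 9.49). It lay above all other arrays and was the 1 higher gene that was also called with strain as a random block (0.77 ± 0.14, adjusted p = 0.00926, and 0.0261 in that fit). Txnip, which restrains thioredoxin and is abundant in resting stem cells, was called only by its dimmer probe set, at 9.30 and 9.63 against 6.79 to 8.83 (median 8.19). That difference was 1.37 ± 0.19 (adjusted p = 0.00158), while the brightest probe set differed by 0.17 ± 0.23 (adjusted p = 0.892).

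**Figure D2:**
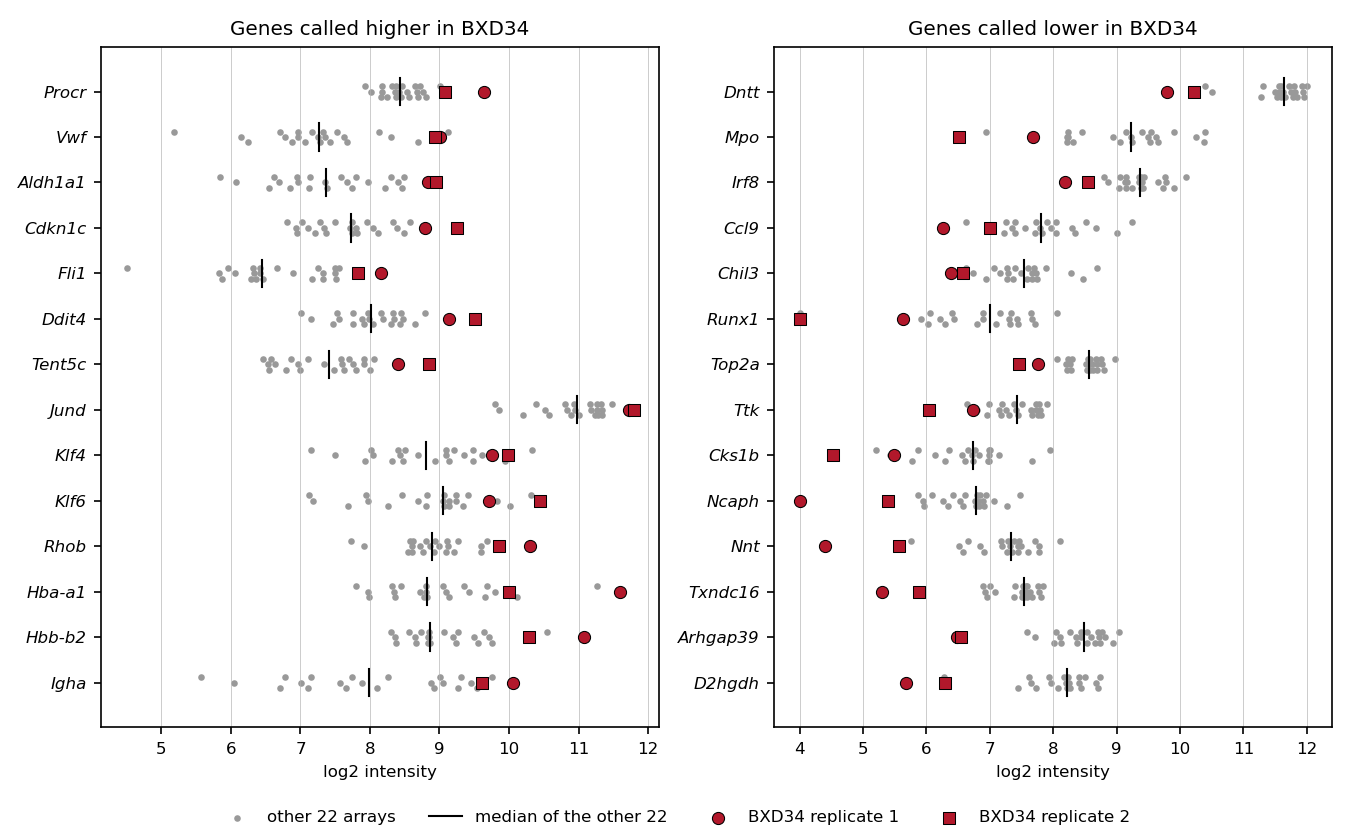
Log2 intensity (x axis) of 14 genes called higher and 14 called lower in BXD34. Grey points are the 22 arrays of the other strains, black ticks their median, and red symbols BXD34 replicate 1 (circle) and replicate 2 (square). For Procr, Aldh1a1, Cdkn1c, Fli1, Ddit4, Tent5c, Jund and Rhob both red symbols lie right of all grey points. For Dntt, Irf8, Chil3, Top2a, Ncaph, Nnt, Txndc16 and Arhgap39 they lie left of all grey points.

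Genes of the lymphoid and myeloid fates were among those lower in BXD34. Dntt, the terminal transferase that adds bases to rearranging antigen receptor genes, is switched on in lymphoid-primed progenitors. Its level was 9.79 and 10.23 in BXD34 against 10.40 to 12 (median 11.64) in the other arrays. Both BXD34 arrays lay below all others, with BXD2 next, and the difference was -1.57 ± 0.17 (adjusted p = 0.000200, and 0.0209 with strain as a random block). The other 2 probe sets of Dntt were also lower, by -1.89 ± 0.26 (adjusted p = 0.00148) and -1.45 ± 0.23 (adjusted p = 0.00382). Of the 15 tested early lymphoid genes Dntt was the only one called, beside 0.605% of all genes called lower, and the median difference was -0.06. The score of that list, the mean log2 level of its members, was 8.22 on both BXD34 arrays against 8.30 to 8.68 (median 8.46), and Dntt itself is part of it. A score without Dntt was not taken, so this position may rest on that gene and adds nothing separate to its call. Satb1, an organizer of chromatin in early lymphoid cells, had its lowest strain mean in BXD34 (-0.79 ± 0.23, adjusted p = 0.148), and the interleukin 7 receptor gene Il7r read 6.31 and 7.01 against 6.34 to 8.43 (median 7.28) (-0.64 ± 0.22, adjusted p = 0.274). Neither passed. In contrast, Rag1 and Tcf3 had their highest strain mean in BXD34, also without passing. Their differences were 0.66 ± 0.44 and 0.23 ± 0.18 (adjusted p of 0.723 and 0.793). Satb1, Rag1 and Tcf3 were looked up after their values were seen. Of the 15 members, 10 lay below the mean of the other strains and 5 above.

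Mpo, the myeloperoxidase of primary granules, was the single called member of 10 tested primary granule and myeloid progenitor genes. It read 7.68 and 6.52 against 6.94 to 10.40 (median 9.24), with 1 BXD9 array between the BXD34 arrays (-2.01 ± 0.42, adjusted p = 0.0263). Its dimmer probe set differed by -0.59 ± 0.18 and was not called (adjusted p = 0.177). The list as a whole had a median difference of 0.02, and Elane, another primary granule protease, read 7.11 and 5.75 against 6.05 to 7.91 (median 6.87) (adjusted p = 0.815). Irf8, the factor that directs progenitors to monocytes and dendritic cells, was lower in BXD34. Its level was 8.19 and 8.55 against 8.81 to 10.10 (median 9.37), below all others (-1.01 ± 0.17, adjusted p = 0.00540). Chil3, a chitinase-like lectin of myeloid cells, read 6.39 and 6.57 against 6.62 to 8.69 (median 7.55), again below all others (-1.05 ± 0.21, adjusted p = 0.0170). It was the single called member of 9 tested secondary granule and calprotectin genes, where S100a8, S100a9 and Camp lay on the other side of the mean (differences of 0.60, 0.74 and 0.56, adjusted p of 0.209, 0.272 and 0.315), beside the neutrophil sums given above.

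Chemokine and cytokine signals of the myeloid line gave 3 further calls. Ccl9, a chemokine of myeloid cells, read 6.26 and 7.0 against 6.62 to 9.24 (median 7.81) (-1.23 ± 0.28, adjusted p = 0.0419). Il3ra, the alpha chain of the interleukin 3 receptor, was named after its value was seen, and read 5.81 and 5.86 against 5.96 to 8.09 (median 7.26), below all others (-1.44 ± 0.25, adjusted p = 0.00645). Ccr2, the receptor that draws monocytes out of marrow, read 7.07 and 7.26 against 5.25 to 10.75 (median 8.86). The spread of Ccr2 among strains was wide, and BXD34 stood in the middle, as the 7th highest of 12 means (-1.19 ± 0.27, adjusted p = 0.0464). The calls of Ccl9 and Ccr2 were lost on leaving out any of 15 and any of 19 single arrays. Of 19 tested monocyte, macrophage and dendritic cell genes, Irf8 and Ccr2 were called lower and Klf4 higher, beside 1.14% of all genes called. The median difference was -0.07. Of 22 tested chemokines, cytokines and receptors, Ccl9 and Ccr2 were called, both lower, beside 0.605% of all genes. The median difference was -0.05.

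Cst7, the protease inhibitor cystatin F of immune cells, was lower in BXD34 but not in BXD34 alone. It read 5.81 and 5.54 against 4.98 to 8.72 (median 7.86), and 3 arrays of other strains, among them those of BXD2, lay beyond (-1.97 ± 0.28, adjusted p = 0.00165). F2r, the thrombin receptor gene of platelets and progenitors, read 10.07 and 10.41 against 9.22 to 12.34 (median 11.57), with BXD34 only the 4th lowest mean of 12 (-0.97 ± 0.16, adjusted p = 0.00426). Its other probe set was not called (0.09 ± 0.40, adjusted p = 0.976). Of 10 tested megakaryocyte and platelet genes, Vwf was called higher, F2r and Cnn3 lower, beside 1.14% of all genes called. The median difference was 0.13. Of 16 tested endothelial and stromal cell genes Vwf was the only call, with a median of 0.22.

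Genes of cell division formed the second group on the lower side. Top2a, the topoisomerase that untangles chromosomes before they separate, read 7.77 and 7.47 in BXD34 against 8.06 to 8.98 (median 8.57). Both BXD34 arrays lay below all others (-0.91 ± 0.17, adjusted p = 0.0112, and 0.0452 with strain as a random block). Ttk, a kinase of the spindle checkpoint, read 6.74 and 6.05 against 6.64 to 7.91 (median 7.43), with 1 BXD2 array between the BXD34 arrays (-1.02 ± 0.22, adjusted p = 0.0322). Cks1b, a small protein that binds cyclin-dependent kinases, read 5.48 and 4.53 against 5.2 to 7.96 (median 6.73) (-1.62 ± 0.36, adjusted p = 0.0362). Ncaph, a subunit of the condensin complex, read 4.01 and 5.39 against 5.87 to 7.48 (median 6.78). It lay below all others in both arrays (-1.93 ± 0.33, adjusted p = 0.00580, and 0.00885 with strain as a random block). The calls of Cks1b and Ttk were lost on leaving out any of 9 and any of 3 single arrays. That of Top2a was lost on leaving out either BXD34 array, with differences of -1.06 without replicate 1 and -0.75 without replicate 2. The Ncaph call was lost without replicate 1, where its difference was -1.25, against -2.62 without replicate 2.

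Further called genes with roles in division were named after their values were seen. Cdca8, a subunit of the chromosomal passenger complex, read 7.85 and 7.56 against 7.92 to 9.01 (median 8.49) (-0.74 ± 0.16, adjusted p = 0.0363). Kif20a, a kinesin of the dividing cell's midzone, read 7.26 and 7.33 against 7.70 to 8.82 (median 8.36) (-1.02 ± 0.19, adjusted p = 0.0112). Blm, the helicase lost in Bloom syndrome, read 6.12 and 6.40 against 6.72 to 7.69 (median 7.12) (-0.90 ± 0.20, adjusted p = 0.0352). In these 3 genes both BXD34 arrays lay below all others. E2f1, which turns on genes of DNA synthesis, was called only by its dimmer probe set, at 4.68 and 4.99 against 5.41 to 8.0 (median 7.0), a difference of -2.18 ± 0.30 (adjusted p = 0.00148). Its brightest probe set differed by -0.25 ± 0.23 (adjusted p = 0.827).

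The promoters of 4 of these genes are shown because they hold letters that late cell cycle genes are known to share. Those are the cell cycle genes homology region, searched as TTTGAA or its complement TTCAAA, and the CCAAT box, searched as CCAAT or its complement ATTGG, and capitals mark both. Each run is 250 bases before to 50 after the RefSeq start in GRCm38.p6, 5′ to 3′ on the strand of the gene. Top2a lies at chr11:99024140-99024439 on the minus strand, Ttk at chr9:83834439-83834738 on the plus strand, Cdca8 at chr4:124936868-124937167 on the minus strand and Cks1b at chr3:89418242-89418541 on the minus strand.
Top2a: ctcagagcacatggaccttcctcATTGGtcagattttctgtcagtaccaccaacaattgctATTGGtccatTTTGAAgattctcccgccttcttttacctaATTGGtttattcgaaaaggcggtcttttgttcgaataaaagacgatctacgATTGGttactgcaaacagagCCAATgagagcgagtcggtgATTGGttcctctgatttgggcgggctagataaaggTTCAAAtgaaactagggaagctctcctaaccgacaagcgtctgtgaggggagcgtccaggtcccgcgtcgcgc
Ttk: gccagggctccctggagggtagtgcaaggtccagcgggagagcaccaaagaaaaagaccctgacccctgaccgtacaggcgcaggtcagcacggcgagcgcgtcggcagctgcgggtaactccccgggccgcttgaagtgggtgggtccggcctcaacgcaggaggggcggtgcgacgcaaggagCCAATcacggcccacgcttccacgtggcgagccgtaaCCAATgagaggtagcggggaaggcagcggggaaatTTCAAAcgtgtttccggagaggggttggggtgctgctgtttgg
Cdca8: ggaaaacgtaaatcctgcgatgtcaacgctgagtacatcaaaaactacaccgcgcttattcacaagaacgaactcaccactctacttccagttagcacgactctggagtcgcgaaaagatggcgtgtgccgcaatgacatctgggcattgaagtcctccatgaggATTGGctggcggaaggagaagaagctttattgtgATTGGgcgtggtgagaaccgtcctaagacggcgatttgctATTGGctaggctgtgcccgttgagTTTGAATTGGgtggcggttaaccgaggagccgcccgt
Cks1b: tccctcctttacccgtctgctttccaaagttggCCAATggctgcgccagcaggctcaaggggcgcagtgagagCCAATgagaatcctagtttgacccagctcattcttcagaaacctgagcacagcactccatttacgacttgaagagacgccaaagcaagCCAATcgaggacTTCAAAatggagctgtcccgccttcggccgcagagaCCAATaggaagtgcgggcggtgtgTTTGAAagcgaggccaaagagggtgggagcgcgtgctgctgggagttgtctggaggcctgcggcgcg
The Top2a promoter held 2 matches to the homology region and 6 to the CCAAT box, that of Ttk 1 and 2, that of Cks1b 2 and 4, and that of Cdca8 1 and 4, with an overlap of 1 base between a pair of them. Of the 8 cell division genes above, 7 had a promoter in the RefSeq table (Kif20a is named only), and 4 of the 7 held the homology region, 5 the CCAAT box and 4 both. Over all 32851 promoters of the table, 17.9% held the homology region, 37.4% the CCAAT box and 6.95% both. Ncaph and E2f1 held neither and Blm held the CCAAT box alone. A match describes the letters in the window and no more.

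The whole list of 45 tested cell cycle genes had 2 calls, Top2a and Ttk, both lower, beside 0.605% of all genes called lower. It had 37 members below the mean of the other strains and a median difference of -0.27, against 0.002 over all genes, of which 49.7% lay below. BXD34 had the lowest strain mean in 12 of the 45 (26.7%), against 8.97% of all genes. A further set of members, looked up after the values were seen, did not pass. The ribonucleotide reductase subunit Rrm1 read 6.09 and 6.42 against 5.22 to 9.22 (median 8.40) (-1.89 ± 0.58, adjusted p = 0.191), the proliferation marker Mki67 8.61 and 8.10 against 8.2 to 10.08 (median 9.54) (-1.01 ± 0.28, adjusted p = 0.116), and the replication licensing gene Mcm2 7.42 and 8.09 against 7.73 to 9.00 (median 8.30) (-0.63 ± 0.24, adjusted p = 0.366). Members on the other side included the cyclin gene Ccne1 (0.92 ± 0.47, adjusted p = 0.588). The cell cycle score was 8.13 and 8.21 in BXD34 against 8.07 to 8.66 (median 8.52), so both arrays lay in the lower part of the range. By strain, the BXD34 score of 8.17 was the 2nd lowest, above BXD2 at 8.09 and below BXD9 at 8.32.

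Among 16 tested cell cycle inhibitors and quiescence genes, 13 lay above the mean of the other strains with a median difference of 0.18, and Cdkn1c was called. The score of that list was 7.88 and 8.04 in BXD34 against 7.45 to 7.86 (median 7.75), above all others on both arrays, and Cdkn1c is part of it. A score without Cdkn1c was not taken, so this position may rest on that gene and adds nothing separate to its call. Ezh2, the histone methyltransferase of the polycomb complex that dividing progenitors carry, read 8.25 and 8.56 against 8.46 to 9.73 (median 9.30) and was not called (-0.82 ± 0.23, adjusted p = 0.137). It had the largest difference of 18 tested polycomb and chromatin regulators, 0 of which were called, with a median of -0.13.

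Immediate early genes, which many stimuli and the handling of cells switch on within a short time, were higher in BXD34 in 4 of 26 tested members, beside 0.534% of all genes called higher. Rhob, a small GTPase, read 10.30 and 9.86 against 7.73 to 9.68 (median 8.89), above all others (1.20 ± 0.17, adjusted p = 0.00148). Jund, a subunit of the factor AP-1 that restrains growth, read 11.73 and 11.79 against 9.80 to 11.48 (median 10.98), also above all others (0.87 ± 0.19, adjusted p = 0.0336). Klf6 and Klf4, zinc finger factors, read 9.72 and 10.45 against 7.12 to 10.32 (median 9.06) and 9.75 and 9.98 against 7.16 to 10.33 (median 8.81), and both overlapped with other arrays, BXD1 having the higher strain mean of Klf6 and BXD2 that of Klf4. Their differences were 1.28 ± 0.24 (adjusted p = 0.0111) and 1.09 ± 0.22 (adjusted p = 0.0212). The call of Jund was lost on leaving out any of 9 single arrays.

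Of the 26 members, 24 lay above the mean of the other strains, and the median difference was 0.43. Fos, the founding member of the class, read 12.92 and 13.14 against 12.08 to 13.22 (median 12.92) and was not called (0.21 ± 0.14, adjusted p = 0.720). Dusp1 and Egr1, a phosphatase and a zinc finger factor, differed by 0.67 ± 0.16 and 0.76 ± 0.20, with adjusted p of 0.0664 and 0.0845. The list score was 9.61 and 9.43 in BXD34 against 8.35 to 9.69 (median 9.04). High scores were thus shared with other strains: BXD2 stood at 9.62, BXD34 at 9.52, BXD1 at 9.43 and BXD16 at 9.34, while BXD19 was lowest at 8.35. Of the 4 called members, 1 had a match to the homology region in its promoter and 2 to the CCAAT box. The letters TGACG or CGTCA, the core of the site of cyclic AMP response factors, were in 1 of the 4, beside 20.8% of all promoters, and TATAAA or TTTATA were in 0, beside 13.6%.

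A stress gene outside that list was also higher. Ddit4, an inhibitor of the growth kinase mTORC1 that stress and glucocorticoids induce, read 9.13 and 9.51 against 7.01 to 8.79 (median 8.02). Both BXD34 arrays lay above all others (1.31 ± 0.19, adjusted p = 0.00173). Trib3, a pseudokinase of the stress response, also lay above all others, at 8.16 and 7.97 against 5.49 to 7.75 (median 7.01), without being called (1.10 ± 0.30, adjusted p = 0.109). Of 24 tested heat shock and unfolded protein response genes 0 were called, with a median of -0.11.

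**Figure D3:**
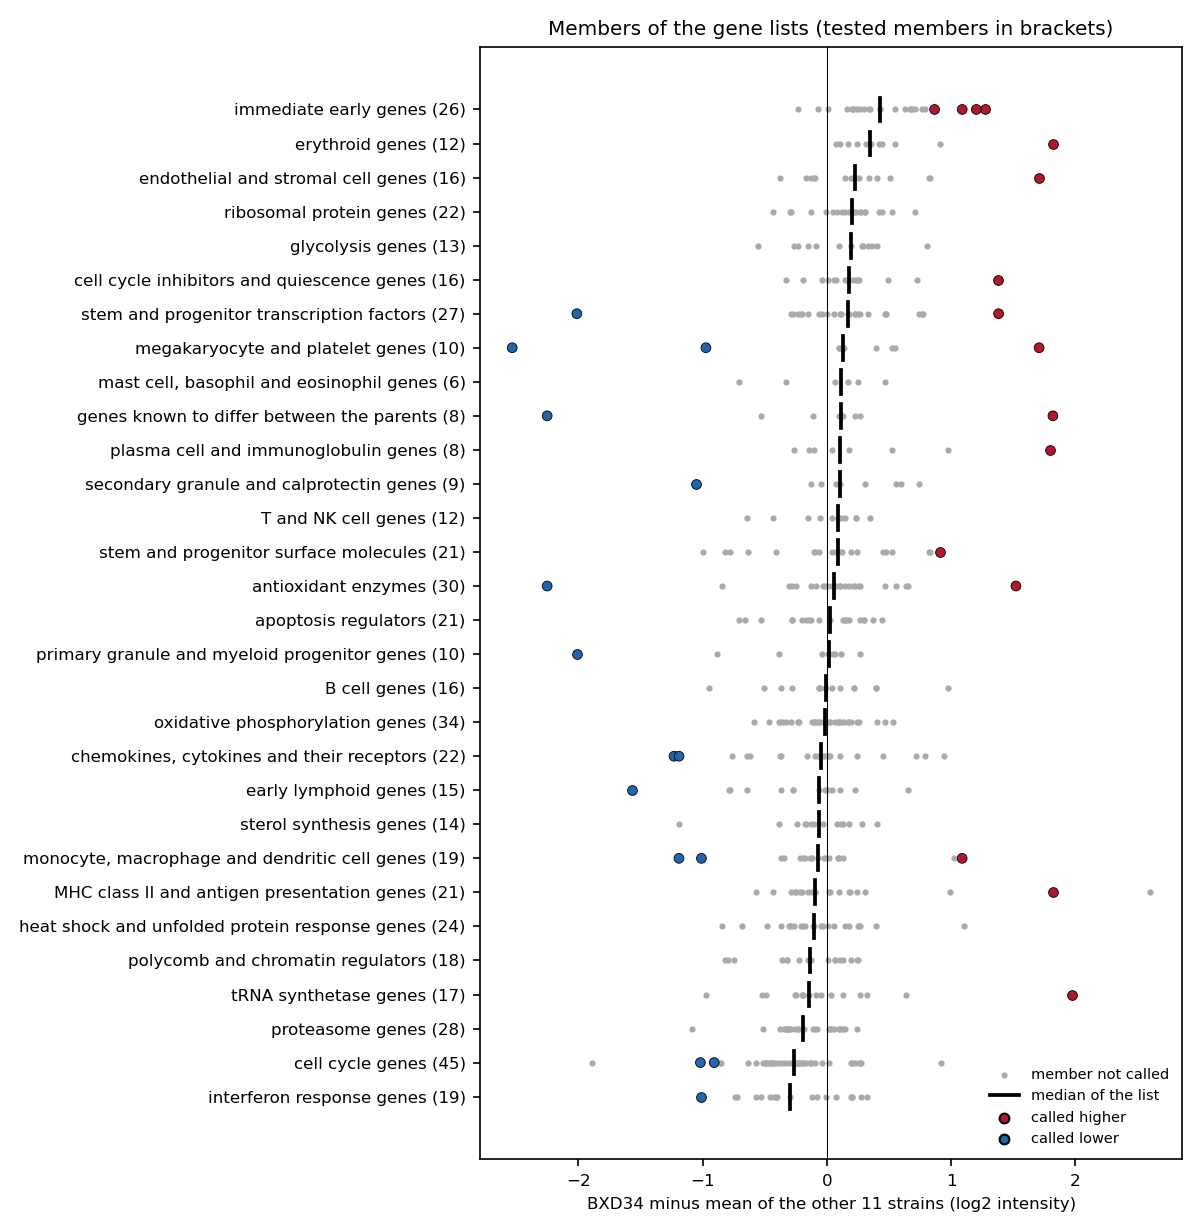
Each point is a tested member of a list, with the BXD34 mean minus the mean of the 11 other strains (log2 intensity) on the x axis. Red and blue points were called, grey points were not, black ticks are list medians, and the number of tested members is in brackets. Immediate early (0.43) and erythroid (0.35) genes have the highest medians, interferon response (-0.30) and cell cycle (-0.27) genes the lowest.

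Interferon response genes had a median difference of -0.30 over 19 tested members, the lowest of the lists drawn, and of -0.18 without BXD5. Of the 19, 13 lay below the mean of the other strains and 6 above. The largest differences above were those of Ifi35 (0.33 ± 0.47, adjusted p = 0.903) and Ifitm3 (0.28 ± 0.24, adjusted p = 0.820). Irf8, given above, was the single call. Of the rest, the antiviral GTPase gene Mx1 read 5.65 and 6.33 against 5.85 to 7.93 (median 6.73) (-0.74 ± 0.25, adjusted p = 0.252) and the interferon regulator Irf7 6.54 and 6.76 against 6.19 to 7.86 (median 7.26) (-0.53 ± 0.28, adjusted p = 0.621), and neither passed. Ifi27, an interferon-induced protein of mitochondria that the list did not hold, was lower, at 5.71 and 5.70 against 6.04 to 8.84 (median 8.09). It lay below all others (-2.10 ± 0.49, adjusted p = 0.0497), but the call was lost on leaving out any of 18 single arrays. The list score was 7.53 and 7.72 in BXD34 against 7.63 to 8.40 (median 7.78), and by strain BXD34 was lowest at 7.62, next to BXD2 at 7.65 and BXD19 at 7.67.

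Globin genes were higher in BXD34. Hbb-b2, an adult beta globin, read 11.07 and 10.28 against 8.31 to 10.55 (median 8.86), with 1 BXD18 array between the BXD34 arrays (1.62 ± 0.23, adjusted p = 0.00165). Hba-a1, an alpha globin, read 11.60 and 10.01 against 7.80 to 11.26 (median 8.81) (1.82 ± 0.40, adjusted p = 0.0362). Globin genes have near-identical copies, so the probe sets may read several of them. Both calls ended without replicate 1, where Hba-a1 was 1.02 and Hbb-b2 1.22 above the other strains, with adjusted p of 0.735 and 0.104. Without replicate 2 their differences were 2.62 and 2.01. The call of Hba-a1 was lost on leaving out any of 13 single arrays. All 12 tested erythroid genes lay above the mean of the other strains with a median of 0.35, among them the factor gene Nfe2 at 10.94 and 10.82 against 9.84 to 10.81 (median 10.30) (0.55 ± 0.14, adjusted p = 0.0845). The list score, at 8.72 and 8.61, lay above the 7.96 to 8.42 of the other arrays. The part of red cell precursors or their free RNA in these values was not tested, and the erythroid marker sums are those given above.

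Some immunoglobulin genes were also higher in BXD34, beside the plasma cell sums given above, and others were not. Igha, the constant region of immunoglobulin A made by plasma cells, read 10.05 and 9.61 against 5.57 to 9.75 (median 7.99), with 1 BXD5 array between the BXD34 arrays (1.8 ± 0.31, adjusted p = 0.00580). High levels of Igha were shared with other strains. The mean of 9.83 in BXD34 stood next to 9.53 in BXD5 and 9.40 in BXD1. BXD28, BXD39 and BXD16 followed at 8.99, 8.95 and 8.85, while BXD9 was lowest at 6.29. Its dimmer probe set was not called (0.42 ± 0.31, adjusted p = 0.762). The kappa variable gene Igkv6-23, named after its value was seen, read 11.61 and 11.01 against 8.50 to 12.10 (median 9.78), with BXD14 higher (1.26 ± 0.28, adjusted p = 0.0362). Ighm, the mu heavy chain, read 11.53 and 11.55 against 9.33 to 12.26 (median 10.48) by its brightest probe set and was not called (0.98 ± 0.29, adjusted p = 0.156). A dimmer probe set of it was called, at 7.85 and 8.35 against 5.21 to 7.74 (median 5.71), a difference of 2.09 ± 0.42 (adjusted p = 0.0183), while the remaining one differed by -0.72 ± 0.29 (adjusted p = 0.394). Of 16 tested B cell genes 0 were called, with a median of -0.01. Of 8 tested plasma cell and immunoglobulin genes, Igha was the only call, with a median of 0.11. Among the members of these lists, Ighg3, Iglc1 and Ighd lay below the mean of the other strains. Their differences were -0.26 ± 0.27, -0.28 ± 0.23 and -0.06 ± 0.28 (adjusted p of 0.849, 0.792 and 0.975), looked up after their values were seen. The plasma cell sums of BXD34 were above all other arrays, but they contain Igha itself. The other markers in them lay within the range of the other arrays, with Jchain, the joining chain of secreted antibodies, at 9.47 and 9.63 against 8.26 to 10.36, the factor gene Xbp1 at 7.83 and 8.36 against 6.99 to 8.61, and Sdc1, which encodes the surface marker CD138, at 4.02 and 4.11 against 4.0 to 4.99. The part of plasma cells in these values was not tested.

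Some of the largest differences were levels that BXD34 shared with part of the other strains. Hars, the histidyl-tRNA synthetase, was split between high and low strains, and BXD34 was high, with 7.89 and 8.26 against 4.0 to 9.45 (median 4.87). Its mean of 8.07 was the 5th highest, next to 8.13 in BXD18 and 8.26 in BXD39, and 8 arrays of other strains lay beyond (1.97 ± 0.28, adjusted p = 0.00148). Ctse, which encodes the protease cathepsin E, read 10.04 and 10.20 against 6.76 to 10.45 (median 7.73). BXD34 at 10.1 stood with BXD39 at 10.4, BXD5 at 10.2 and BXD28 at 9.69, and the other 8 strains lay between 6.99 and 7.81 (1.87 ± 0.21, adjusted p = 0.000256). Its 2 dimmer probe sets were not called, at -0.07 ± 0.22 and -0.44 ± 0.25 (adjusted p of 0.964 and 0.653). H2-Ea, a class II antigen-presenting chain that some mouse strains lack, read 8.61 and 9.04 against 4.0 to 9.75 (median 7.77), the 4th highest mean (1.82 ± 0.30, adjusted p = 0.00426). H2-Aa, another class II chain, had the highest strain mean in BXD34 but was not called (2.60 ± 0.71, adjusted p = 0.112), and of 21 tested antigen presentation genes H2-Ea was the only call, with a median of -0.09.

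On the lower side, Snhg1, a host of small nucleolar RNAs, read 9.20 and 8.56 against 8.62 to 11.04 (median 10.76). BXD1 and BXD39 were low as well, and 4 of their arrays lay below the higher BXD34 array (-1.58 ± 0.19, adjusted p = 0.000405). Cnn3, a calponin that binds actin, was at the floor in both BXD34 arrays and in 1 BXD39 array, and the other arrays reached 8.31 (median 7.36). Its difference of -2.53 ± 0.27 (adjusted p = 0.000200) is therefore a lower limit in size. Low means of Cnn3 were also seen in BXD2 at 4.21, BXD39 at 4.42, BXD28 at 4.79 and BXD21 at 4.93.

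Another set of genes was low in BXD34 and in few of the other 11 strains. Txndc16, a thioredoxin-domain protein of the secretory route, read 5.31 and 5.88 against 6.89 to 7.83 (median 7.54). Arhgap39, a GTPase-activating protein, read 6.48 and 6.55 against 7.59 to 9.03 (median 8.49). In both genes the gap between BXD34 and the nearest other array was wider than the gap between the BXD34 arrays. The differences were -1.86 ± 0.21 (adjusted p = 0.000256) and -1.92 ± 0.25 (adjusted p = 0.000855). With strain as a random block their adjusted p were 9.77e-05 and 0.000776. Together with Dntt they were the 3 named genes called in all 46 alternatives.

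Nnt encodes a proton-pumping enzyme of mitochondria that supplies NADPH, and C57BL/6J mice are known to lack part of the gene. It read 4.40 and 5.56 against 5.76 to 8.11 (median 7.33). Both BXD34 arrays lay below all others, with BXD39 next at a mean of 6.17, and the other strains from 6.89 upward (-2.25 ± 0.34, adjusted p = 0.00212). Pdgfb, a growth factor of platelets, was named after its value was seen and read 4.62 and 5.31 against 5.65 to 7.0 (median 6.38) (-1.37 ± 0.26, adjusted p = 0.0160). D2hgdh, a mitochondrial dehydrogenase of 2-hydroxyglutarate, read 5.69 and 6.29 against 6.29 to 8.73 (median 8.22) (-2.02 ± 0.40, adjusted p = 0.0170). Mrvi1, a partner of the inositol trisphosphate receptor, read 4.43 and 4.42 against 4.21 to 7.44 (median 6.74) (-2.13 ± 0.35, adjusted p = 0.00426). An array of BXD18 lay just below the higher BXD34 array for D2hgdh, and an array of BXD21 lay below both for Mrvi1. The expressed sequence AI506816 read 8.32 and 7.19 against 8.03 to 10.73 (median 9.36) (-1.61 ± 0.36, adjusted p = 0.0410), its call was lost on leaving out any of 17 single arrays, and its other probe set was not called (0.19 ± 0.22, adjusted p = 0.878).

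**Figure D4:**
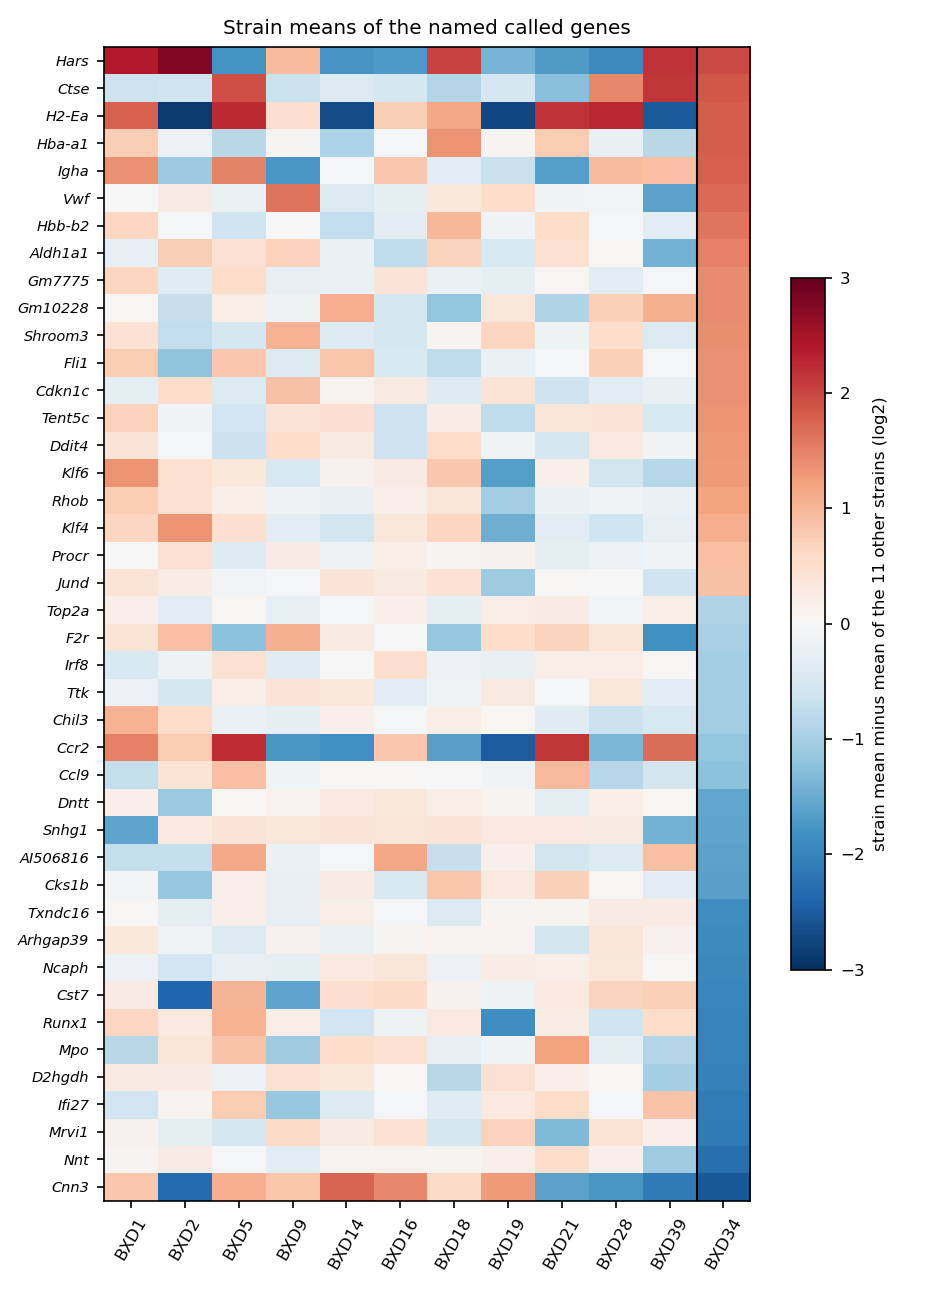
Strain means of the 42 named called genes, each relative to the mean of the 11 other strains (colour, log2), with strains as columns and BXD34 last. Hars, Ctse, H2-Ea, Ccr2 and Cnn3 have strong colours in several strains, whereas Txndc16, Arhgap39 and Nnt are strongly coloured in the BXD34 column.

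The remaining called genes were not grouped. Shroom3, an actin-binding protein that shapes epithelia, read 8.70 and 8.69 against 6.44 to 8.66 (median 7.07) (1.40 ± 0.24, adjusted p = 0.00624). Tent5c, a poly(A) polymerase of blood cells, read 8.40 and 8.85 against 6.46 to 8.05 (median 7.42) (1.35 ± 0.20, adjusted p = 0.00212). In both, the BXD34 arrays lay above all others. The predicted genes Gm7775 and Gm10228 read 7.56 and 7.46 against 5.49 to 7.26 (median 5.87) and 7.22 and 7.70 against 4.71 to 7.23 (median 6.24), with adjusted p of 0.0419 and 0.00894, and the call of Gm7775 was lost on leaving out any of 15 single arrays. The rest of the 64 called genes are given by name after their values were seen. Higher were Itsn1 (0.90 ± 0.18), Spg21 (1.23 ± 0.20), Nckap1 (1.01 ± 0.22), Trim47 (0.89 ± 0.18), Ctla2b (0.79 ± 0.16) and Mtss2 (0.77 ± 0.17), with adjusted p from 0.00426 to 0.0372. Lower were Gli1 (-1.40 ± 0.30), Slc16a8 (-1.34 ± 0.30), Ablim1 (-1.27 ± 0.29), Aldh9a1 (-1.27 ± 0.20), Adgrg3 (-1.15 ± 0.24), Acadl (-1.14 ± 0.24) and Rbm14 (-0.87 ± 0.20), with adjusted p from 0.00344 to 0.0474.

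Lists of general cell function gave few calls. Of 22 tested ribosomal protein genes 17 lay above the mean of the other strains, with a median of 0.20 and 0 calls. The largest difference was that of Rpl37a, at 10.08 and 8.89 against 7.66 to 10.39 (median 8.68) (0.71 ± 0.32, adjusted p = 0.493). Of 34 oxidative phosphorylation genes, 13 glycolysis genes, 28 proteasome genes, 14 sterol synthesis genes and 21 apoptosis regulators 0 were called, with medians of -0.01, 0.19, -0.19, -0.06 and 0.02. The members with the largest differences were Cycs (-0.59 ± 0.21, adjusted p = 0.323), Hk1 (0.81 ± 0.42, adjusted p = 0.605), Psmb6 (-1.09 ± 0.47, adjusted p = 0.468), Hmgcs1 (-1.19 ± 0.31, adjusted p = 0.0950) and Casp6 (-0.71 ± 0.55, adjusted p = 0.782). None of these 5 genes passed. Of 30 antioxidant enzymes, Aldh1a1 was called higher and Nnt lower, with a median of 0.06. Of 17 tRNA synthetase genes Hars was the only call (median -0.14), and Aars, the alanyl-tRNA synthetase, had its lowest strain mean in BXD34 without passing (-0.97 ± 0.24, adjusted p = 0.0741). T and NK cell genes (12 tested) and mast cell, basophil and eosinophil genes (6 tested) had 0 calls, and the largest difference among the latter was that of the mast cell protease gene Cpa3 (-0.71 ± 0.29, adjusted p = 0.412).

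Probe sets of 1 gene did not always tell the same story. Apart from E2f1, Txnip and Ighm, 7 genes were called only by a dimmer probe set, namely Ctsc, Gnao1, Miip, Lat2 and Pik3ca lower and Fmc1 and Pdxdc1 higher. For Pdxdc1 the dimmer probe set read 9.58 and 9.10 against 4.76 to 9.40 (median 6.32), a difference of 2.20 ± 0.33 (adjusted p = 0.00212), and over the arrays it ran against the brightest probe set (r = -0.732), which differed by 0.02 ± 0.49 (adjusted p = 0.993). For Lat2, an adaptor of myeloid and B cells, both probe sets ran alike (r = 0.647), with differences of -1.07 ± 0.25 (adjusted p = 0.0457) and -0.44 ± 0.18 (adjusted p = 0.423). Calls of genes whose other tested probe sets were not called, Ctse, Aldh1a1, F2r, Igha and AI506816 among them, rest on 1 probe set each. Of these, the probe sets of Igha ran alike (r = 0.781) and differed in the call only.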

How the data were processed

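RNA of sorted marrow cells was hybridised to Affymetrix MG_U74Av2 arrays. The deposited values were intensities on a linear scale, made by the authors with software not given in the sources used here, for 12488 probe sets. The 2% trimmed mean of each array lay near a common value, so arrays had been scaled before deposit. The scanner parameter files held no measurement and were not used, so no scan batch could be formed. Nothing in the labels ties an array to its pool of mice, so p-values reflect the spread between arrays alone, part of which may be technical.

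For the 24 arrays of code M7SS020806, intensities under 16 were set to 16, log2 was taken and quantile normalization followed. The 66 control probe sets and those with a mean under the 40th percentile (6.04) were left out, which left 7453. Strain means were fitted with limma 3.58.1 in R 4.3.3 (12 residual and 4.21 prior degrees of freedom), and the method was tested on simulated data. The simulated arrays held no differences among the other strains, so that test cannot show how such differences affect the calls. Adjusted p is Benjamini-Hochberg over all tested probe sets, with a threshold of 0.05. Precision is limited by the number of arrays.

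Symbols were taken from GEO's annotation of the platform and updated by Entrez identifier to RefSeq (GRCm38.p6), with 10817 probe sets matched. Of 12422 probe sets, 10833 had 1 symbol, 396 several and 1193 none, and genes were named only from those with 1. The named genes were the 15 called genes with the largest difference in each direction, every called member of a list, the member with the largest difference of each list without a call, and Kit, Ly6a and Xist. The members, the 31 lists and the tests were chosen with earlier results of these data known. Lists got no test and are described by counts and medians. Alternatives changed the arrays fitted, the error term, the normalization, the floor, the filter and the prior, and left out single arrays and strains.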

Additional observations from a re-analysis of the deposited data

How the results depend on the processing

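No called gene changed sign in any of the 46 alternatives. Over those, 2190 of 2510 values of the named genes kept their direction and side of the threshold, 299 lost the call, 5 gained one, and 16 uncalled values changed sign. Those were Hk1, at -0.03 without BXD34 replicate 1, and 15 of Xist, whose difference was near 0 and reached 0.37 without that array. With strain as a random block (consensus correlation 0.0378), 10 probe sets were called, 1 higher and 9 lower, with 0 of the immediate early, 1 of the cell cycle, 0 of the erythroid and 0 of the interferon response genes. With no filter on dim probe sets 49 were called higher and 31 lower. A filter at the 60th percentile gave the cell cycle genes a median of -0.341. Fitting all 44 arrays together, doing so without BXD40 and BXD42, or adding a mean-variance trend gave 2 called erythroid genes in each case. Leaving out 1 array or 1 strain at a time gave 33 to 90 called probe sets, 11 to 43 higher and 22 to 50 lower. The lowest counts came without BXD34 replicate 1, and without replicate 2 there were 20 higher. Over the same fits, 1 to 5 immediate early, 0 to 3 cell cycle, 0 to 1 erythroid and 0 to 1 interferon response genes were called. Medians of the cell cycle, erythroid and immediate early genes ran from -0.33 to -0.22, from 0.32 to 0.43 and from 0.31 to 0.50. That of the interferon response genes ran from -0.36 to -0.18, with the latter seen without BXD5. Counts of probe sets with both BXD34 arrays beyond the rest ran from 56 to 84 above and from 45 to 68 below, with the 68 below seen without BXD2. Without BXD2, BXD14 and BXD18 together, chosen after seeing the data, these counts were 102 and 85, with fewer arrays to lie beyond. The causes of the other shifts were not tested. A scan batch as a block was not run, since no file gives one. No paired analysis was possible because the titles carry no replicate number that strains share. Values near the floor of 4 are upper limits, and 2 arrays per strain limit what can be called.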

Other observations

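The 10 strains whose arrays carry the other code, M7SS020422, gave a second set of levels for the called genes when all 44 arrays were normalized together. Code and strain cannot be told apart there, so these levels are a description with no test. Of the 30 genes called higher in BXD34, 15 had their highest mean of all 22 strains in BXD34. Of the 34 called lower, 22 had their lowest mean there. Among all tested genes these shares were 4.66% and 4.77%. The 22 strains include those that gave the calls, so the called genes were already picked for a BXD34 mean that differed from theirs. Among those strains alone, BXD34 was highest in 26 of 36 probe sets called higher. It was lowest in 43 of 48 called lower. The gap to all tested genes is therefore in part fixed by that choice and is no separate test of the calls.

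Dntt stood at 10.02 in BXD34 and between 11.2 and 12.2 in those 10 strains. Arhgap39 stood at 6.46 against 8.51 to 9.08, Top2a at 7.61 against 8.41 to 9.18, Mpo at 7.07 against 7.16 to 8.82 and Ncaph at 4.67 against 6.48 to 7.36, so that all 10 strains lay above BXD34 in these genes. On the higher side, Rhob stood at 10.1 against 7.88 to 8.96, Jund at 11.8 against 9.99 to 10.6, Aldh1a1 at 8.91 against 5.33 to 7.36 and Vwf at 8.98 against 4.80 to 7.99. All 10 strains lay below BXD34 in these.

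For others the additional strains reached as far as BXD34 or further. Nnt was at the floor of 4 in BXD38, under the 4.92 of BXD34. Hba-a1 reached 11.7 in BXD6 against 10.8, and Cdkn1c reached 9.57 in BXD11 against 9.04. Igha reached 10.6 in BXD11, with a median of 9.35 over the 10 strains, against 9.84 in BXD34. That was the 4th highest Igha mean of the 22 strains. Shroom3 and Tent5c were also higher in BXD11, at 9.08 and 9.03 against 8.71 and 8.64. Runx1 was at 4.38 in BXD11 against 4.78. AI506816 ran from 5.47 in BXD38 to 9.64 in BXD6 with a median of 7.77, against 7.75 in BXD34, which was the 6th lowest mean of the 22 strains.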
